A study of Mus musculus with 20 samples.

Results

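The growth arrest genes described here are Gadd45a, Gadd45b, Gadd45g, Cdkn1a, Cdkn1b, Cdkn1c, Mdm2, Ccng1 and Btg2. They were chosen by gene symbol alone: every probe that the platform annotation assigns to one of these symbols was taken, which gave 20 of 45281 probes and 9 of 19057 named genes. Of these, 16 probes lay among the brighter 50% of probes that were tested, and they represent 8 of the 9 genes. The single Btg2 probe, 2 Cdkn1b probes and 1 Mdm2 probe were dimmer than that.

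These genes act at the checkpoints that stop a damaged or stressed cell from dividing. The transcription factor p53 switches on many of them, among them Cdkn1a, Mdm2, Ccng1, Btg2 and Gadd45a, while the eIF2 alpha and ATF4 arm of the stress response and the MAP kinases can induce the Gadd45 genes without p53. The Gadd45 proteins bind PCNA, CDK1 and the kinase MAP3K4, and the Cdkn1 proteins p21, p27 and p57 inhibit cyclin-dependent kinases. Mdm2 is the ubiquitin ligase that sends p53 to the proteasome, and p21, p27 and p53 are themselves removed by the proteasome, the target of bortezomib.

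RNA was measured on Illumina mouse bead arrays in cultures of 2 mouse multiple myeloma lines, 589bm and 595sp. Per the labels, both lines are derived from multiple myeloma of Bcl-XL/Myc double transgenic mice on a background of FVBN crossed with BL/6. Each line was present as a bortezomib-resistant and a bortezomib-sensitive culture, and all 4 cultures carry both transgenes. Each culture gave 1 array at 0 h, without drug, and 1 at each of 2, 8, 16 and 24 h of exposure to 33 nM bortezomib, a proteasome inhibitor. A group such as resistant at 24 h therefore holds 2 arrays, 1 from each line, and each resistant culture is a single culture of its line. No culture was sampled untreated after 0 h, so drug and time in culture cannot be told apart. Nothing in the labels names separate cultures for a group within a line, so the p-values measure the spread between these samples. In the fits of responses that spread is how far the 2 lines disagreed over time, and part of it may be technical.

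The resistant 589bm array at 2 h was nearly blank, with 0.144% of its probes brighter than 2 times its median where the remaining 19 arrays had 13.4% to 20.3%, and it was left out. On the 5 arrays titled as resistant 595sp the characteristics disagree with the title on time, and on 3 of them on sensitivity as well. Title, description and source name give 1 name, which was used, and the calls on resistant responses and on response differences are given with and without these arrays. Without them each resistant group holds at most 1 array. A call lost there cannot tell dependence on these arrays from too few arrays. For each of the 19 arrays, the array with the highest correlation came from its own culture. Of 11 plasma cell and B cell markers, 9 had a probe. Mzb1, a plasma cell chaperone, lay at the 99.7 to 99.9 percentile of probes in every culture, while Jchain and Tnfrsf17 lay below the median of all probes.

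Of the 8 tested members, the resistant cultures had 1 higher at 24 h than at 0 h, beside 0.864% of all 11802 tested genes, and the sensitive cultures had 4 higher, beside 8.24% of all genes. None was lower in either. Gadd45a, Gadd45g, Cdkn1a and Mdm2 made up the rise in the sensitive cultures, and Gadd45a alone passed in the resistant ones. A gene passed at a Benjamini-Hochberg adjusted p under 0.05 in limma, and each gene stands for its brightest probe. At 16 h the counts were 1 in resistant cultures (0.635% of all genes higher) and 4 in sensitive cultures (5.82%). At 8 h they were 0 in resistant cultures (0.127%), where 2 members had an unadjusted p under 0.05, and 3 in sensitive cultures (1.53%). At 2 h, where the resistant value rests on 595sp alone, limma called 0 members in either, beside 0% of all genes, and 0 members had an unadjusted p under 0.05 in either. The median change of the 8 members at 24 h was 0.30 on the log2 scale in resistant cultures, where the median of all genes was 0.01, and 0.67 in sensitive cultures, where it was 0.02. A fit without the culture term called 0 members in resistant cultures and 2 in sensitive cultures at 24 h, Gadd45a and Gadd45g. Each array measured the RNA of a whole culture, so fewer cells of a type and less RNA per cell cannot be told apart.

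**Figure D1:**
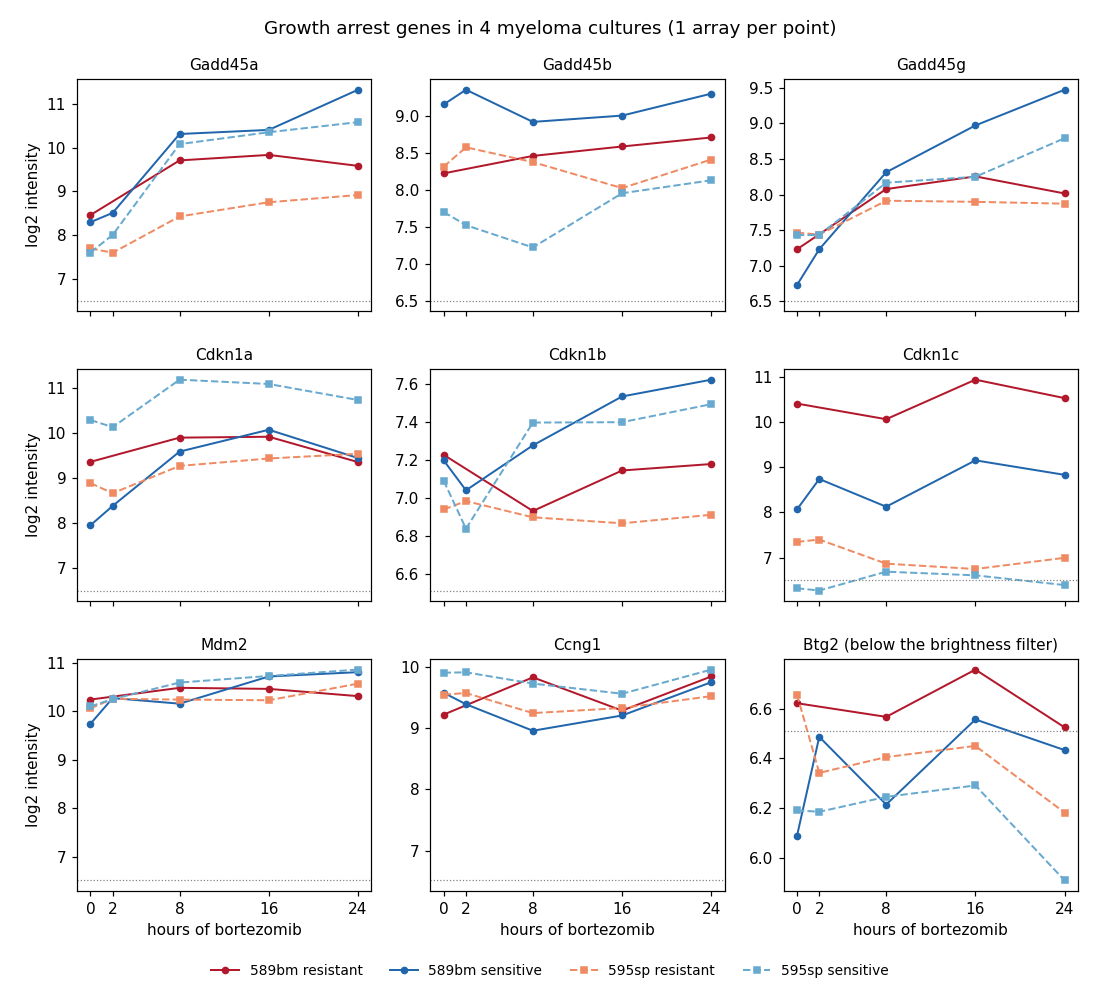
Log2 intensity of the brightest probe of each growth arrest gene (vertical axis) against hours of bortezomib (horizontal axis) in the 589bm and 595sp cultures, resistant in red and sensitive in blue. Each point is 1 array, the dotted line is the array median of 6.51, and each panel has its own vertical range. From 8 h on, Gadd45a is higher in both sensitive cultures than in either resistant culture, and Cdkn1c is highest in resistant 589bm at every time shown.

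The Gadd45 family showed its steepest course in Gadd45a, the stress sensor of the family that is induced by DNA damage and by protein-folding stress. The gene lies on chr6:67035096-67037407 of GRCm38.p6. The RefSeq window of 250 bases before its start is shown together with that of Gadd45g, since these are the 2 family members that rose. Capitals mark, on either strand, the octamer ATTTGCAT, the NF-Y box CCAAT, the GC box GGGCGG, the TATA box TATAAA, the element TGATGNAA (CARE) that ATF4 reads with C/EBP factors, and the p53 half-site. The CRE letters TGACGTCA and the AP-1 site TGANTCA were searched as well, and neither window holds them.
Gadd45a, chr6:67037408-67037657, minus strand: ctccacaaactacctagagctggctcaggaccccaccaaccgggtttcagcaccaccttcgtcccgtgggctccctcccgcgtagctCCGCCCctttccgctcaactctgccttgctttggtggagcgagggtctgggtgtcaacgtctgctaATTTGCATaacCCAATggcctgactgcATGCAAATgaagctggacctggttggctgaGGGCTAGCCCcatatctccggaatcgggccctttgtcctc
Gadd45g, chr13:51846425-51846674, plus strand: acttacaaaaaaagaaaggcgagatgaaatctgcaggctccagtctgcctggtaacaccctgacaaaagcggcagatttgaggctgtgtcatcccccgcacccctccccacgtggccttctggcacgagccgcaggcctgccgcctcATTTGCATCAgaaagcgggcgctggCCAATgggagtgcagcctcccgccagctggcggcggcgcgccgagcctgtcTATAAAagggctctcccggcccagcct

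In the Gadd45a window the octamer began at position -97 on the strand of the gene and at -70 on the other strand, counted from -1 at the base before the start, with an NF-Y box between them at -86. A GC box began at -163 and a p53 half-site at -40. In the Gadd45g window the single octamer began at -103 and overlapped a CARE on the other strand at -101, with an NF-Y box at -78 and a TATA box at -27. Among all 32851 windows of the same length, 1.6% held an octamer and 0.0974% held 2 or more. The NF-Y box occurred in 33.8%, the GC box in 32.7%, the TATA box in 12.4%, CARE in 3.45%, CRE in 1.55%, the AP-1 site in 6.75% and the p53 half-site in 7.13% of them. These are matches of letters, not sites of binding. In human GADD45A, octamer and CCAAT letters near the start are known to be bound by Oct-1 and NF-YA, which is background from another species.

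**Figure D2:**
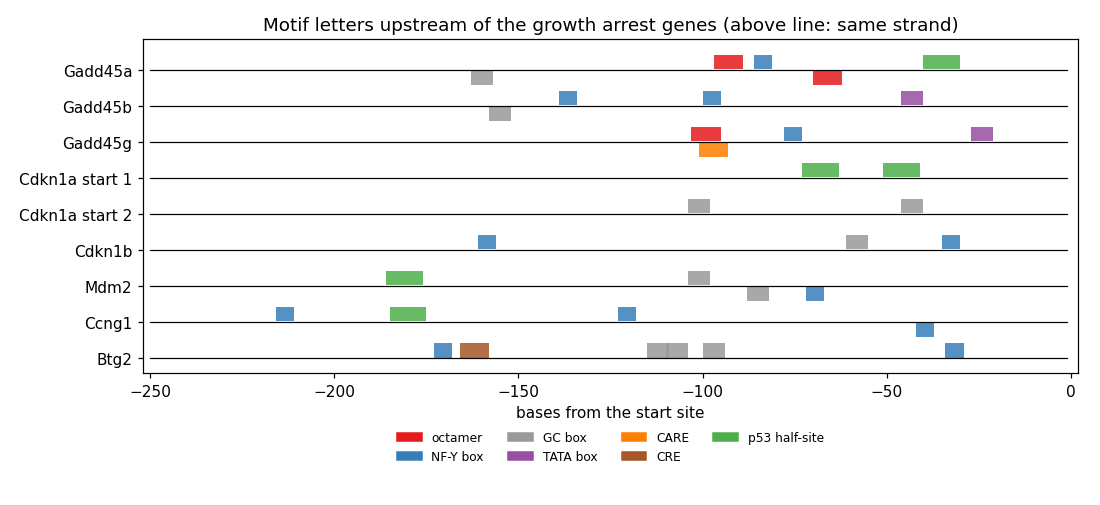
Places of the searched motif letters in the 250 bases before the start (horizontal axis, bases from the start) for each growth arrest gene with a RefSeq window, with Cdkn1a at both of its starts. Boxes above a line lie on the gene's own strand and boxes below on the other. Octamers occur in Gadd45a and Gadd45g, and p53 half-sites in Gadd45a, Cdkn1a, Mdm2 and Ccng1.

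Gadd45a had log2 intensities of 8.46, 9.71, 9.83 and 9.58 in resistant 589bm at 0, 8, 16 and 24 h, and of 7.70, 7.60, 8.43, 8.75 and 8.92 in resistant 595sp at 0, 2, 8, 16 and 24 h. The sensitive cultures had 8.30, 8.51, 10.31, 10.40 and 11.32 in 589bm and 7.61, 8.01, 10.08, 10.35 and 10.58 in 595sp at the same 5 times. Resistant and sensitive cultures of a line began within 0.16 of each other, and from 8 h on the highest resistant array lay below the lowest sensitive one. In the resistant cultures the log2 change from 0 h was 0.99 at 8 h (adjusted p = 0.0691), 1.21 at 16 h (0.00722) and 1.17 at 24 h (SE 0.20, 0.00895), a 2.25-fold rise at 24 h. Sensitive cultures changed by 2.24 at 8 h (9.19e-06), 2.42 at 16 h (2.26e-06) and 3.0 at 24 h (SE 0.20, 2.24e-07), a 7.98-fold rise at 24 h and the 11th largest of 11802 genes. Without the 5 resistant 595sp arrays the resistant changes were 1.37 at 16 h and 1.12 at 24 h. Neither passed, with 1 resistant array left at each of these times. The same 2 resistant calls were lost when any single array of their comparison was left out, with changes of 1.09 to 1.34 at 16 h and 0.98 to 1.36 at 24 h, while the sensitive calls passed in each of the 4 fits with 1 array left out.

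The second Gadd45a probe followed the first with a correlation of 0.992 over the 19 arrays, each culture centred on its mean. Its log2 change at 24 h was 1.07 in resistant cultures (adjusted p = 0.0406) and 2.58 in sensitive cultures (4.95e-06). The resistant value passed in 0 of 4 fits with 1 array left out (0.82 to 1.32, adjusted p 0.108 to 0.487).

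The smaller rise of Gadd45a in the resistant cultures was tested as a difference of responses. At 24 h the resistant minus sensitive response was -1.83 on the log2 scale (SE 0.29, adjusted p = 0.0452), which made Gadd45a the only member to pass, beside 0.0508% of all genes lower. Averaged over 8, 16 and 24 h it was -1.43 (SE 0.24, 0.0252), again with Gadd45a as the only member, beside 0.11% of all genes lower, and it ranked 15th from the lowest. At 8 h the difference was -1.25 (0.544) and at 16 h -1.21 (0.434), and limma called 0 members at either time, beside 0% and 0.0339% of all genes lower, with 2 and 3 members at an unadjusted p under 0.05. The second probe gave -1.51 at 24 h (0.122) and -1.11 over the 3 times (0.182). Without the 5 resistant 595sp arrays, with 1 resistant array left per time, the values were -1.87 and -1.31, and neither passed. With 1 array left out the difference at 24 h ran from -2.01 to -1.64 and passed only without the sensitive 595sp array at 24 h (0.0332). The mean over 3 times ran from -1.59 to -1.28 and passed in 7 of 16 such fits. It missed without any of the 4 arrays at 0 h, without resistant 589bm at 16 or 24 h, without resistant 595sp at 8 or 16 h and without sensitive 589bm at 24 h (adjusted p 0.051 to 0.283).

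Gadd45g, a family member best known from immune and developing cells, had log2 intensities of 7.23, 8.08, 8.26 and 8.02 in resistant 589bm at 0, 8, 16 and 24 h, and of 7.47, 7.44, 7.91, 7.90 and 7.87 in resistant 595sp over the 5 times. The sensitive cultures had 6.73, 7.23, 8.31, 8.97 and 9.47 in 589bm and 7.43, 7.43, 8.17, 8.25 and 8.79 in 595sp. All 4 cultures were higher at 24 h than at 0 h, and at 24 h both sensitive arrays lay above both resistant ones. In the resistant cultures the log2 change was 0.65, 0.73 and 0.60 at 8, 16 and 24 h (adjusted p 0.49, 0.235 and 0.38), and none passed. Sensitive cultures changed by 1.16 at 8 h (SE 0.27, 0.0358), 1.53 at 16 h (0.00228) and 2.05 at 24 h (0.000157), a 4.15-fold rise at 24 h. The 24 h change was 2.74 in sensitive 589bm and 1.36 in sensitive 595sp. The sensitive 589bm array at 0 h, at 6.73, lay near the array median of 6.51, which limits the size of the fold. The difference of the 2 responses at 24 h, resistant minus sensitive, was -1.46 (SE 0.39, 0.205) and did not pass. Of the sensitive calls, the one at 8 h was lost without the 5 resistant 595sp arrays (0.118), without sensitive 589bm at 0 h (0.64, 0.615) or 8 h (0.123) and without sensitive 595sp at 8 h (0.221). It was also lost under median scaling (1.11, 0.117), in the authors' normalized table (0.80, 0.058), without normexp (0.80, 0.0577) and without the culture term (1.16, 0.542). The one at 16 h was lost without sensitive 589bm at 0 h (1.01, 0.0917) or 16 h (0.0688), and the one at 24 h passed in every fit with 1 array left out. A second, dimmer Gadd45g probe rose in sensitive cultures at 24 h only (0.81, SE 0.20, 0.0136), and it did not pass without sensitive 589bm at 0 h (0.57, 0.248) or 24 h (0.0675) or without sensitive 595sp at 24 h (0.119).

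Gadd45b, the member tied to NF-kappa B and TGF-beta signalling, took no part in the rise. Its log2 intensities were 8.22, 8.46, 8.58 and 8.71 in resistant 589bm at 0, 8, 16 and 24 h, and 8.31, 8.57, 8.37, 8.02 and 8.41 in resistant 595sp over the 5 times. In the sensitive cultures they were 9.15, 9.35, 8.91, 9.0 and 9.29 in 589bm and 7.70, 7.53, 7.23, 7.96 and 8.13 in 595sp. The cultures kept their own levels through the course, with sensitive 589bm the highest at every time and sensitive 595sp the lowest. The log2 change at 24 h was 0.29 in resistant cultures (adjusted p = 0.652) and 0.29 in sensitive cultures (0.461). A dimmer Gadd45b probe changed at 24 h by -0.009 in resistant 589bm and -0.05 in resistant 595sp. In sensitive 589bm and 595sp that probe changed by -0.32 and -0.45.

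The Cdkn1 family holds the Cip and Kip inhibitors of cyclin-dependent kinases. Cdkn1a encodes p21, the p53 target that arrests cells before DNA replication, and its RefSeq entry has 2 starts on chromosome 17. Both windows are shown with the Mdm2 window, since these are the classical p53 targets among the genes that rose. Capitals again mark the motif letters.
Cdkn1a start 1, chr17:29090729-29090978, plus strand: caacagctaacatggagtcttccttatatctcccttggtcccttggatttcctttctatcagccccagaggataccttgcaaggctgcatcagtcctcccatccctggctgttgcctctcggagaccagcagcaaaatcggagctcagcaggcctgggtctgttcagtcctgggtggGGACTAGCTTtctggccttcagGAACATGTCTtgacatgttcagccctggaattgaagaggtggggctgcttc
Cdkn1a start 2, chr17:29093519-29093768, plus strand: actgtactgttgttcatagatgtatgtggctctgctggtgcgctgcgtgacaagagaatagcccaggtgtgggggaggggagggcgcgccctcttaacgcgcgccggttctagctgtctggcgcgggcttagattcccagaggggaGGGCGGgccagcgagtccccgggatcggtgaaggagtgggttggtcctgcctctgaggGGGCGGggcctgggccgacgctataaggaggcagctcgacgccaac
Mdm2, chr10:117710759-117711008, minus strand: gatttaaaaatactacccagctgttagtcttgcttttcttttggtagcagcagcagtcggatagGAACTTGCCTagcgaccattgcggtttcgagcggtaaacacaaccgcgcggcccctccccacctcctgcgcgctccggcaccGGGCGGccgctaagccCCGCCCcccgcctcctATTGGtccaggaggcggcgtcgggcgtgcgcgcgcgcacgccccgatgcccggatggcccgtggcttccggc

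The window of the first Cdkn1a start held 2 p53 half-sites, at -73 and -51, and that of the second held 2 GC boxes, at -104 and -46. The Mdm2 window held a p53 half-site at -186, GC boxes at -104 and -88 and an NF-Y box at -72. No octamer or CARE letters occurred in these 3 windows. The deposited values do not tell which Cdkn1a start was used.

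Cdkn1a had log2 intensities of 9.36, 9.90, 9.92 and 9.35 in resistant 589bm at 0, 8, 16 and 24 h, and of 8.89, 8.67, 9.27, 9.43 and 9.54 in resistant 595sp over the 5 times. In the sensitive cultures it had 7.95, 8.38, 9.59, 10.07 and 9.44 in 589bm and 10.29, 10.13, 11.18, 11.08 and 10.73 in 595sp. Both sensitive cultures peaked at 8 or 16 h, and the sensitive 595sp arrays lay above all others at every time. In the resistant cultures the log2 change was 0.46, 0.55 and 0.32 at 8, 16 and 24 h (adjusted p 0.624, 0.355 and 0.676), and none passed. In the sensitive cultures it was 1.26 at 8 h (SE 0.25, 0.0128), 1.46 at 16 h (0.00179) and 0.97 at 24 h (0.0187). The other Cdkn1a probes changed by 0.39 and 0.77 at 24 h in sensitive cultures (0.327 and 0.0501), and neither passed at any time. The difference of responses over 8, 16 and 24 h, resistant minus sensitive, was -0.78 (SE 0.29, 0.342).

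Each Cdkn1a call depended on single arrays. Without sensitive 589bm at 0 h the sensitive changes were 0.80 at 8 h (adjusted p = 0.372), 0.99 at 16 h (0.0756) and 0.50 at 24 h (0.39). Without sensitive 589bm at the later time they were 1.26 (0.0631), 1.09 (0.0596) and 0.77 (0.182), and without sensitive 595sp the change was 1.26 at 8 h (0.114) and 1.16 at 24 h (0.0537). Under median scaling in place of quantile normalization Cdkn1a passed at none of the 3 times, with 1.17 at 8 h (0.183), 1.01 at 16 h (0.0892) and 0.60 at 24 h (0.36).

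Mdm2 had log2 intensities of 10.24, 10.48, 10.46 and 10.31 in resistant 589bm at 0, 8, 16 and 24 h, and of 10.06, 10.26, 10.24, 10.23 and 10.57 in resistant 595sp over the 5 times. In the sensitive cultures it had 9.74, 10.27, 10.16, 10.72 and 10.81 in 589bm and 10.10, 10.25, 10.59, 10.73 and 10.86 in 595sp. The 2 sensitive arrays at 24 h were the highest of all 19. In the resistant cultures the log2 change at 24 h was 0.29 (SE 0.18, adjusted p = 0.563). Sensitive cultures changed by 0.45 at 8 h (0.269), 0.80 at 16 h (0.0097) and 0.91 at 24 h (SE 0.18, 0.00315), a 1.88-fold rise at 24 h. The Mdm2 probe below the brightness filter changed at 24 h by -0.12 in resistant 589bm and 0.28 in resistant 595sp. In sensitive 589bm and 595sp that probe changed by 0.10 and -0.54. A second tested Mdm2 probe gave 0.85 at 16 h (0.0113) and 0.76 at 24 h (0.0167) in the sensitive cultures. These were lost without sensitive 589bm at 0 h (0.70, 0.19, and 0.61, 0.211), without sensitive 589bm at the later time (0.59, 0.203, and 0.85, 0.0592), and at 24 h without sensitive 595sp (0.67, 0.16). Without sensitive 589bm at 0 h the first probe gave 0.68 at 16 h (0.162) and 0.79 at 24 h (0.0687), without sensitive 589bm at 16 h it gave 0.71 (0.114), and under median scaling it gave 0.39 at 16 h (0.544) and 0.54 at 24 h (0.368), so none of these passed.

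**Figure D3:**
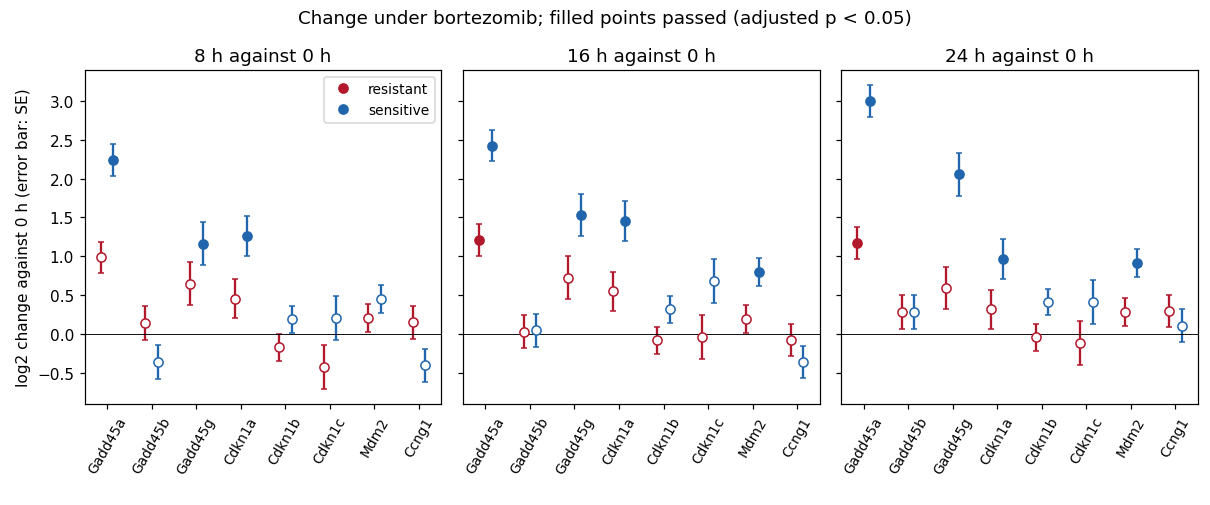
Log2 change from 0 h (vertical axis) at 8, 16 and 24 h for the 8 tested growth arrest genes (horizontal axis), resistant cultures in red and sensitive in blue. Error bars are standard errors of the limma estimate and filled points passed at an adjusted p under 0.05. Sensitive Gadd45a reaches 3.0 at 24 h, where resistant Gadd45a stays at 1.17.

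Cdkn1b encodes p27, the inhibitor of cyclin E and CDK2 complexes, and only 1 of its 3 probes was bright enough to test. Its log2 intensities were 6.93 to 7.23 in resistant 589bm and 6.86 to 6.98 in resistant 595sp, against 7.04 to 7.62 in sensitive 589bm and 6.84 to 7.49 in sensitive 595sp. Both sensitive cultures were highest at 24 h. The log2 change at 24 h was -0.04 in resistant cultures (adjusted p = 0.968) and 0.41 in sensitive cultures (0.134), and neither passed. At 24 h the dim probes changed by -0.16 and -0.12 in resistant 589bm and by 0.08 and 0.02 in resistant 595sp. They changed by 0.27 and 0.01 in sensitive 589bm and by 0.14 and -0.08 in sensitive 595sp.

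Cdkn1c encodes p57, an imprinted inhibitor of the same family, and was set apart by culture rather than by time. Its log2 intensities were 10.42, 10.07, 10.95 and 10.54 in resistant 589bm at 0, 8, 16 and 24 h, and 7.35, 7.40, 6.86, 6.75 and 6.99 in resistant 595sp over the 5 times. For sensitive cultures they were 8.07, 8.74, 8.13, 9.16 and 8.83 in 589bm and 6.32, 6.27, 6.69, 6.61 and 6.39 in 595sp. The ranges of all 4 cultures were separate, and most of the signal came from 589bm. Sensitive 595sp arrays lay around the array median of 6.51, and resistant 595sp arrays lay above it, between 6.75 and 7.40. The log2 change at 24 h was -0.12 in resistant cultures (adjusted p = 0.928) and 0.42 in sensitive cultures (0.397).

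Ccng1 encodes cyclin G1, a p53 target that recruits a phosphatase to Mdm2. Its brightest probe ran from 9.22 to 9.84 in resistant 589bm and from 9.25 to 9.57 in resistant 595sp, and from 8.96 to 9.75 in sensitive 589bm and from 9.56 to 9.96 in sensitive 595sp, on the log2 scale. Its log2 change at 24 h was 0.30 in resistant cultures (adjusted p = 0.624) and 0.11 in sensitive cultures (0.809). The other Ccng1 probes had a correlation of 0.841 with each other and of -0.144 and -0.262 with the brightest, so the probes of this gene disagree. One of them, at 0.66 in sensitive cultures at 16 h (0.0807), passed only without sensitive 595sp at 16 h (1.06, 0.0102).

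Btg2, an antiproliferative p53 target, was measured by 1 probe below the brightness filter. It ran from 6.52 to 6.76 in resistant 589bm and from 6.18 to 6.66 in resistant 595sp, against 6.09 to 6.56 in sensitive 589bm and 5.91 to 6.29 in sensitive 595sp. In a fit of all probes its log2 change at 24 h was -0.29 in resistant cultures (adjusted p = 0.695) and 0.03 in sensitive cultures (0.97).

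Each line was then taken alone, setting its 8, 16 and 24 h arrays against its 0 and 2 h arrays. The times of 1 culture stand in for replicates there, so these p-values measure the spread over times of single cultures. In the resistant cultures 0 members passed in 589bm, beside 0.288% of all genes higher, with 2 members at an unadjusted p under 0.05, and 1 passed in 595sp, beside 0.686%. In the sensitive cultures 3 members rose in 589bm, beside 5.09% of all genes, and 3 in 595sp, beside 5.21%. Gadd45a changed by 1.25 in resistant 589bm (SE 0.31, adjusted p = 0.0909) and by 1.05 in resistant 595sp (0.0289), against 2.27 in sensitive 589bm (4.35e-06) and 2.53 in sensitive 595sp (2.25e-06). Gadd45g changed by 1.94 in sensitive 589bm (3.45e-05) and 0.97 in sensitive 595sp (0.0179). Cdkn1a changed by 1.53 in sensitive 589bm (8.31e-05) and 0.79 in sensitive 595sp (0.0236). Another of its probes passed in sensitive 595sp (0.83, 0.0228), and no other Cdkn1a probe passed in sensitive 589bm. The tests of 589bm against 595sp called 0 members in the resistant cultures, beside 0% of all genes, where 0 members had an unadjusted p under 0.05, and 0 in the sensitive cultures, beside 0.144%, where 2 members had one.

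Of the phase calls on the brightest probes, those in sensitive 589bm passed in every fit with 1 array left out. That of sensitive 595sp Gadd45a did so as well, and the other 595sp calls did not. No value of the resistant 595sp phase exists without the 5 resistant 595sp arrays. Resistant 595sp Gadd45a was lost without the array at 0, 2, 16 or 24 h (0.94 to 1.10, adjusted p 0.081 to 0.314). Sensitive 595sp Cdkn1a was lost without 0, 2, 8 or 16 h (0.70 to 0.87, 0.0694 to 0.222), and sensitive 595sp Gadd45g without 0, 2 or 24 h (0.78 to 0.97, 0.0984 to 0.167). Sensitive 589bm Mdm2 passed only without 8 h (0.76, 0.00844).

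The resistant culture was also compared with the sensitive culture of its line over the times that both had. In 589bm 1 member was higher in the resistant culture, beside 10.8% of all genes, and 2 were lower, beside 9.36%. In 595sp 2 were higher, beside 10.9%, and 3 were lower, beside 11.3%. The difference between the lines passed for 2 members with the higher value in 589bm, beside 12.2% of all genes, and for 1 with the lower value there, beside 10.4%. With 8 tested members, counts of 1 or 2 cannot be set apart from these shares of all genes. The count of 3 lower in 595sp was not tested against its share. The p-values of these comparisons rest on how 1 pair of cultures per line varied over time, with 4 times in 589bm and 5 in 595sp. All 595sp values, and all tests of whether the lines differ, rest on the 5 arrays whose characteristics disagree with their title, and no value without them exists.

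Cdkn1c was higher in the resistant culture of 589bm, where every array lay well above the array median. Its resistant minus sensitive difference was 1.95 on the log2 scale (SE 0.15, adjusted p = 8.4e-07), a 3.85-fold excess that ranked 11th of 11802 genes, and it lay between 1.70 and 2.35 at each of 4 times. In 595sp the fitted difference was 0.62 (SE 0.15, 0.0124), between 0.14 and 1.13 at each of 5 times. Since the sensitive 595sp arrays, at 6.27 to 6.69, lay at the array median, this value and the fitted difference between the lines of 1.33 (SE 0.23, 0.000553) give no measured size. At 0 h alone, across both lines, it was 1.69 (0.333) with 1 residual degree of freedom, where limma called 0 members, beside 0% of all genes, and 1 member had an unadjusted p under 0.05. With a spread pooled over all 19 arrays the 0 h value passed (1.69, 0.00263). That spread is taken over times within cultures. It leaves out how far the lines disagree at 0 h, where the difference was 2.35 in 589bm and 1.03 in 595sp.

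Cdkn1a was lower in the resistant culture of 595sp and did not pass in 589bm. In 595sp all resistant arrays lay below all sensitive ones, and the 3 probes gave -1.52 (SE 0.12, adjusted p = 5.85e-06), -1.40 (3.14e-05) and -1.31 (0.000164). In 589bm the same probes gave 0.37 (0.265), -0.43 (0.085) and -0.19 (0.526). The brightest probe was 1.41 higher in resistant than in sensitive 589bm at 0 h and differed by -0.16 to 0.31 at later times. At 0 h the second probe differed by -0.65 and the third by 0.17, so the probes disagree there. The difference between the lines passed on all 3 probes, with 1.89 (SE 0.27, 8.3e-05), 0.97 (0.00394) and 1.12 (0.00533). The second probe passed in 589bm when the 16 h arrays were left out (-0.58, 0.0482).

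Gadd45b differed in opposite directions. The resistant culture was lower in 589bm at 4 of 4 times, by -0.60 (SE 0.15, adjusted p = 0.0112), and higher in 595sp at 5 of 5 times, by 0.63 (SE 0.16, 0.0164). The difference between the lines was -1.23 (SE 0.23, 0.00091). The 589bm call was lost without the 8 h arrays (-0.64, 0.0535), and the 595sp call without those at 2 h (0.53, 0.0607) or 8 h (0.50, 0.0618). The dimmer Gadd45b probe gave -0.19 in 589bm and 0.21 in 595sp, and neither it nor its line difference of -0.41 (0.122) passed.

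Gadd45a was lower in the resistant culture of both lines, by -0.69 in 589bm (SE 0.22, adjusted p = 0.0448) and -1.04 in 595sp (SE 0.24, 0.0101), and the lines differed by 0.36 (0.58). Its second probe gave -0.81 (0.00945), lost without the 24 h arrays (-0.51, 0.0521), and -0.98 (0.0111), lost without those at 8, 16 or 24 h (-0.85 to -0.83, 0.0503 to 0.0563). By time, the brightest probe ran from 0.16 at 0 h to -1.73 at 24 h in 589bm and from 0.09 at 0 h to -1.66 at 24 h in 595sp. The 589bm call was lost without the arrays at 8 h (-0.71, 0.149), 16 h (-0.72, 0.116) or 24 h (-0.34, 0.25), and the 595sp call without those at 16 h (-0.91, 0.0511) or 24 h (-0.89, 0.0529).

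**Figure D4:**
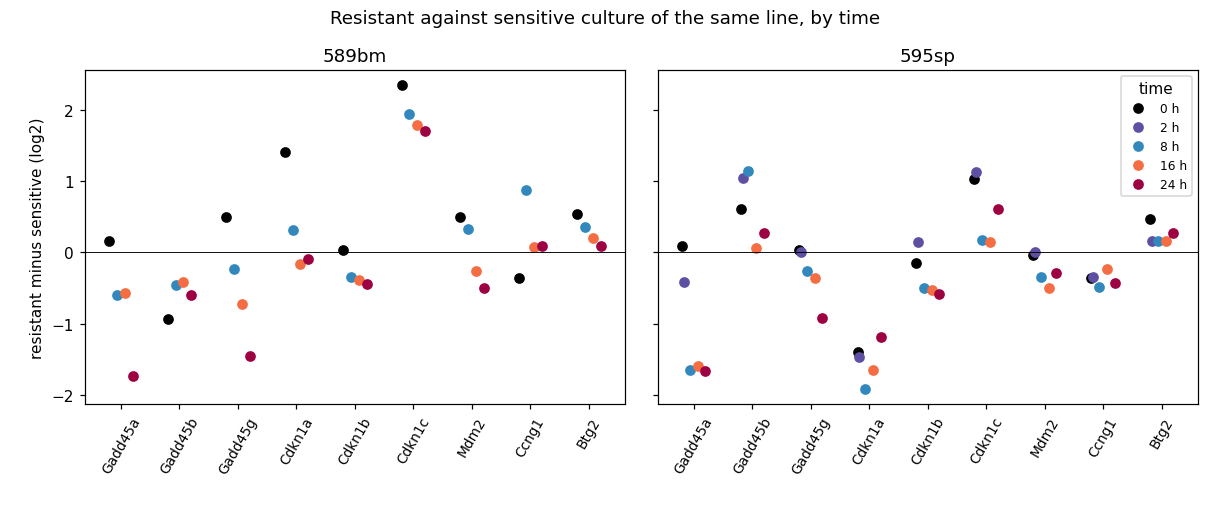
Resistant minus sensitive log2 intensity (vertical axis) for the brightest probe of each growth arrest gene (horizontal axis), 589bm on the left and 595sp on the right, with 1 point per time. All Cdkn1c points lie above 0 in both lines. All Gadd45b points lie below 0 in 589bm and above 0 in 595sp, and all 595sp Cdkn1a points lie below -1.

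The remaining members differed less. Gadd45g gave -0.48 in 589bm (adjusted p = 0.187) and -0.30 in 595sp (0.193), and it passed in 589bm only without the 0 h arrays (-0.80, 0.00411). Mdm2 gave 0.02 (0.955) and -0.24 (0.182). Cdkn1b gave -0.29 (0.215) and -0.32 (0.0969), and it passed in 595sp only without the 2 h arrays (-0.44, 0.0336). Ccng1 was lower in resistant 595sp on its brightest probe (-0.37, SE 0.10, 0.0248), which did not pass when the arrays of any 1 time were left out (0.055 to 0.076), while its other probes gave -0.08 and 0.01. In 589bm the Ccng1 probes gave 0.17 (0.562), 0.46 (0.0465) and 0.22 (0.359), and the one call was lost without the arrays at 0, 8 or 24 h (0.40 to 0.46, 0.101 to 0.177). Btg2, in the fit of all probes, gave 0.29 in 589bm (0.203) and 0.24 in 595sp (0.159), with the resistant culture higher at 4 of 4 and 5 of 5 times.

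The members that rose also followed each other. Over the 19 arrays, with each culture centred on its mean, Gadd45a correlated at 0.91 with Gadd45g, at 0.844 with Mdm2, at 0.822 with Cdkn1a and at 0.711 with Cdkn1b. It correlated at 0.125 with Gadd45b and at -0.0863 with Ccng1. The 3 genes most like Gadd45a were Atf3 (0.986), a stress-induced transcription factor, Whamm (0.973), an actin nucleation factor, and Bag3 (0.972), a co-chaperone of Hsp70. Those most like Gadd45g were Riok3 (0.973), Pi4k2b (0.971) and Washc4 (0.963). Those most like Cdkn1a were Ccdc47 (0.965), Srprb (0.957) and Rtn3 (0.946), which all encode proteins of the endoplasmic reticulum membrane. Those most like Mdm2 were Med6 (0.966), Itprip (0.962) and Nsun4 (0.957). These points share 4 cultures and 1 time course, and the correlations are a description.

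Other p53 targets moved in part. Of 28 listed, 24 were tested. At 24 h 1 rose and 1 fell in resistant cultures, where 0.864% of all genes rose and 0.551% fell, while 6 rose and 1 fell in sensitive cultures, where 8.24% rose and 6.24% fell. A single gene of 24 is near the share of all genes in sensitive cultures, and in resistant cultures 1 gene is the smallest count above 0. Their median log2 change was 0.12 in resistant and 0.15 in sensitive cultures, where all genes had 0.01 and 0.02. Plk3, a stress-activated kinase, changed by 1.09 in resistant cultures (adjusted p = 0.0129) and 1.08 in sensitive cultures (0.00226). In sensitive cultures the others that rose most were Sesn2, an inhibitor of mTORC1 that ATF4 also induces (1.5, 0.00338), Pmaip1, which encodes the BH3-only protein Noxa (1.40, 0.000144), and Apaf1, the core of the apoptosome (1.03, 0.00373). Pidd1, a death-domain p53 target, fell by 1.08 in resistant cultures at 24 h (0.00782). In sensitive cultures it passed at 16 h (-0.76, 0.0163). Without the resistant 595sp arrays, with 1 resistant array left per time, Plk3 changed by 1.14 and Pidd1 by -1.09, and neither passed. In sensitive cultures Ei24 fell by 0.72 at 24 h (0.0206), and Sesn1, the sestrin best known as a p53 target, fell by 1.25 at 8 h (0.00299) and 0.85 at 16 h (0.0145). Of 13 tested regulators of p53, 0 passed in limma in resistant cultures at 24 h, with 2 at an unadjusted p under 0.05. In sensitive cultures 1 rose and 2 fell at 24 h, and 1 riser of 13 is near the share of all genes. There Daxx changed by 0.68 (0.0465), Hipk2 by -0.78 (0.0255) and Atm, the DNA damage kinase, by -0.77 (0.00455). At 16 h Atm changed by -0.90 in resistant cultures (0.0116) and by -0.87 in sensitive cultures (0.00285). Without the resistant 595sp arrays its resistant change was taken at 24 h only, at -0.50.

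Some cyclins fell. Of 16 tested cyclins and their kinases at 24 h, 2 fell in resistant cultures, beside 0.551% of all genes, and 6 fell in sensitive cultures, beside 6.24%. None rose, and the median log2 change was -0.29 in resistant and -0.55 in sensitive cultures. In resistant cultures the genes that fell were Ccne2, an E-type cyclin of S phase entry (-1.32, adjusted p = 0.0213), and Ccnd2, a D-type cyclin (-0.95, 0.0167). Without the resistant 595sp arrays, with 1 resistant array left per time, Ccne2 changed by -1.42 and Ccnd2 by -0.76, and neither passed. In sensitive cultures the lowest were Ccnh, the partner of Cdk7 (-1.45, 0.0143), Ccnd1 (-1.23, 0.0235), Ccne1 (-1.06, 0.00479) and Ccnd2 (-0.95, 0.00281). Of the 6 tested Ink4 inhibitors and pocket proteins, limma called 0 in either kind of culture at 8, 16 or 24 h, with 1 in resistant and 3 in sensitive cultures at an unadjusted p under 0.05 at 24 h. Their medians at 24 h were -0.17 in resistant and -0.38 in sensitive cultures.

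The next lists are short, with 6 to 9 tested genes, so 1 call cannot be set apart from the share of all genes. At 24 h 0.864% of all genes rose and 0.551% fell in resistant cultures, and 8.24% rose and 6.24% fell in sensitive cultures. The first 9 are kinases and factors that act with Gadd45 proteins in the p38 and JNK pathways. Of these, 0 passed in limma in resistant cultures at 24 h, with 2 at an unadjusted p under 0.05. In sensitive cultures Jun, the AP-1 subunit, rose by 1.26 (adjusted p = 0.00192) and Mapk11, a p38 kinase, by 0.96 (0.00459), while Map2k6 fell by 0.68 (0.0325). Among 7 tested relatives of Btg2 and Ccng1, 0 passed in resistant cultures at 24 h, with 2 at an unadjusted p under 0.05, and in sensitive cultures Tob2 rose by 0.92 (0.0166) and Btg1 by 0.84 (0.00572), both antiproliferative factors of 1 family, while Ccni fell by 0.58 (0.0461). Among 6 tested genes of p27 turnover and its FoxO regulators, 0 passed in resistant cultures at 24 h, with 1 at an unadjusted p under 0.05, and Skp1, a subunit of the SCF ubiquitin ligase, fell by 0.92 in sensitive cultures (0.0487).

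**Figure D5:**
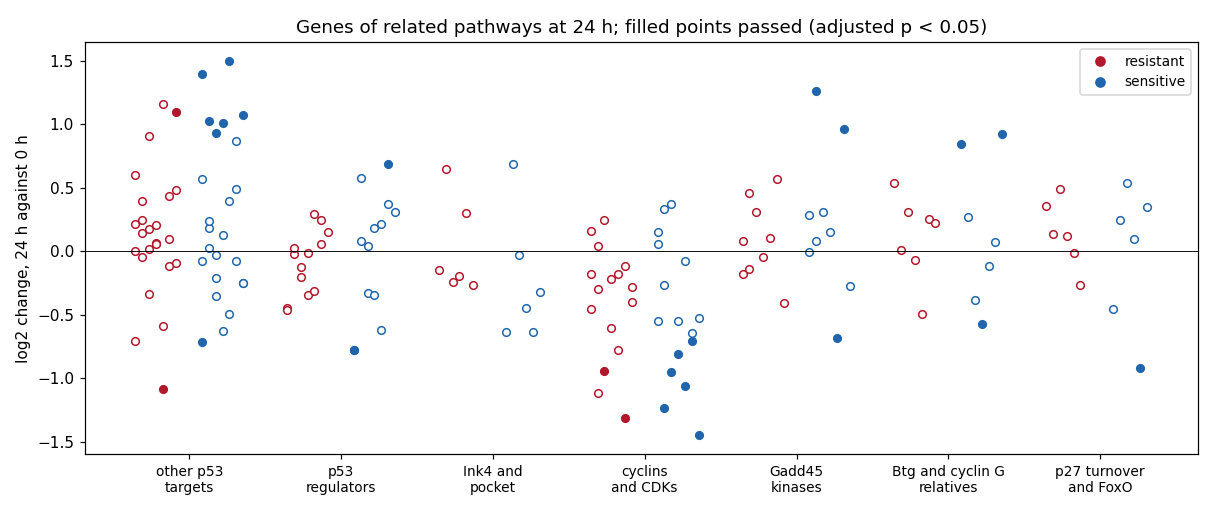
Log2 change from 0 h to 24 h (vertical axis) of every tested gene in 7 lists around the growth arrest genes (horizontal axis), resistant cultures in red and sensitive in blue. Filled points passed at an adjusted p under 0.05. In the list of cyclins and CDKs every filled point lies below 0, and among the other p53 targets 6 filled points of the sensitive cultures lie above 0.

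Some cell type markers changed as well. Of 3 tested T cell markers, 1 fell in resistant cultures at 24 h (median 0.13), beside 0.551% of all genes lower. In sensitive cultures 2 fell (median -0.81), beside 6.24% of all genes lower. The same shares stand beside the other marker counts, and 1 call in a list this short cannot be set apart from them. Of 3 tested macrophage markers, 0 passed in limma in resistant cultures, with 0 at an unadjusted p under 0.05 (median -0.11), and 1 fell in sensitive cultures (median 0.19). Of 7 tested plasma cell and B cell markers, 0 passed in resistant cultures, with 2 at an unadjusted p under 0.05 (median -0.16), and 1 fell in sensitive cultures (median -0.19), Cd79b, a B cell receptor subunit, which changed by -0.17 in resistant cultures (adjusted p = 0.818) and -0.77 in sensitive cultures (0.0165). Cd3g, a T cell receptor subunit, changed by -1.21 in resistant cultures at 24 h (adjusted p = 0.00666) and by -1.76 in sensitive cultures (3.91e-05). Without the resistant 595sp arrays, with 1 resistant array left per time, its resistant change was -1.37 and did not pass. Cd2 changed by 0.13 in resistant cultures (0.875) and -0.81 in sensitive cultures (0.0135), and Mpeg1, a macrophage gene, by -0.45 in resistant cultures (0.676) and -2.25 in sensitive cultures (0.000658). The summed linear intensity of all 6 T cell markers ranged from 1266 to 1946 in resistant 589bm and from 913.5 to 1237 in resistant 595sp, and from 1113 to 3065 in sensitive 589bm and from 788.4 to 1486 in sensitive 595sp. That of the 5 measured of 6 macrophage markers ranged from 526.2 to 555.1 and from 486.6 to 677.1 in resistant 589bm and 595sp, and from 482.8 to 901.5 and from 807.2 to 1790 in sensitive 589bm and 595sp. Their part in the changes of the growth arrest genes was not tested.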

How the data were processed

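Per the file headers, the deposited table without normalization gives each of 45281 probes a 1-colour signal intensity on each of 20 arrays, and no detection p-values. The sources used here do not give the software, scanner settings or background handling behind these intensities. The authors' second deposited table holds intensity on a linear scale with the same sorted values in all 20 columns, within 1%, a column median of 177 and rank correlations of 1 with the first table. It was used as an alternative.

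Over 19 arrays, limma 3.58.1 in R 4.3.3 applied normexp (offset 50), log2 and quantile normalization to them. Tests covered the 50% of probes with the higher mean log2 value, 22641 probes. The platform annotation gave 34885 probes 1 gene symbol, 18 several and 10378 none, and 34807 symbols were matched through Entrez numbers to a gene table of GRCm38.p6. A gene is represented by its brightest kept probe, which gave 11802 genes. Sequences are from RefSeq (GRCm38.p6), which held windows for 8 of the 9 members.

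Arrays were grouped by title. Responses against 0 h were fitted as culture (block) plus sensitivity by time with 7 residual degrees of freedom, phases as culture by phase with 11, each line with time as a term with 3 in 589bm and 4 in 595sp, the difference between lines with 7, and 0 h with 1. All fits used lmFit and eBayes with an intensity trend, Benjamini-Hochberg adjustment over all kept probes and a threshold of 0.05. The pairing comes from the cell line: arrays of 1 culture deviated together from their group means, with correlations of 0.672 to 0.773 in resistant and 0.566 to 0.82 in sensitive cultures. The number of arrays limits the precision.

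All probes of the members are reported, the brightest of each gene in full and the others with fewer values. From each list, at most 4 passing genes highest and 4 lowest in the contrast described are named, and the 3 genes most like each member that rose. The members and lists were chosen with earlier results of these data known. The alternatives were median scaling, the authors' table, no normexp, no filter, the brightest 30% of probes, all 20 arrays, no culture block, no resistant 595sp arrays and 1 array left out. The tests were run on simulated data with 100 changed probes of each size among 22641. At 24 h in sensitive cultures they recovered 62% of log2 changes of 1 and 98% of those of 2, with 8 false calls. For the difference of responses at 24 h they recovered 24% and 90%, with 6 false calls.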

Additional observations from a re-analysis of the deposited data

Results flagged for a closer look

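The difference between the Gadd45a responses of resistant and sensitive cultures passed on 1 of its 2 probes. The resistant minus sensitive difference of its change from 0 h was -1.83 on the log2 scale at 24 h (adjusted p = 0.0452) and -1.43 over 8, 16 and 24 h (0.0252), with the resistant value lower in 2 of 2 lines. The second probe missed (-1.51, 0.122, and -1.11, 0.182). The brightest probe also missed under median scaling (-1.47, 0.47, and -1.11, 0.263), with all 20 arrays and without the culture term (adjusted p = 1 in both). At 24 h it missed in 7 of 8 fits with 1 array left out. It missed as well without the 5 resistant 595sp arrays, which leaves 1 resistant array per time.

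The resistant minus sensitive difference was not the same in both lines for 3 genes, by limma's test of 589bm minus 595sp. For Cdkn1a it differed by 1.89, 0.97 and 1.12 on its 3 probes (adjusted p 8.3e-05, 0.00394 and 0.00533). For Cdkn1c the fitted difference was 1.33 (0.000553), with no measured size since the sensitive 595sp arrays lay near the array median. For Gadd45b it differed by -1.23 (0.00091), with the lines on opposite sides of 0. All of these rest on the 595sp arrays whose characteristics disagree with their title, and their p-values measure the spread over times of single cultures.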

How the results depend on the processing

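Counts of members that passed moved by over 1.5 times as follows. Under median scaling they were 0 in resistant cultures at 16 and 24 h, 1, 2 and 2 in sensitive cultures at 8, 16 and 24 h, 0 for the response difference at 24 h and over 3 times, 0 for the late phase of resistant 595sp and 1 for that of sensitive 595sp. Under it the median of all genes was -0.171 at 16 h and -0.105 at 24 h in sensitive cultures, 0.137 for the response difference at 24 h and -0.174 for the difference between lines, where quantile normalization gave -0.00681, 0.0175, -0.0159 and 0.00991. Beside those medians Gadd45a (2.65, adjusted p = 8.28e-06) and Gadd45g (1.83, 0.000405) passed at 24 h. With all 20 arrays, including the nearly blank one, counts were 0 for both sets of responses and their differences, 0 for the late phase of resistant 595sp, 1 for each sensitive late phase, 0 within 589bm and 1 for the difference between lines. Without the replicate block for culture, counts were 0 for the resistant responses, 0, 0 and 2 in sensitive cultures at 8, 16 and 24 h and 0 for the differences. At 24 h Gadd45a (0.0186) and Gadd45g (0.0156) passed without the pairing. Without the 5 resistant 595sp arrays, counts were 0 for the resistant responses at 16 and 24 h and 0 for the differences. The authors' table and no normexp gave 0 for the late phase of resistant 595sp, and a pooled spread gave 1 at 0 h. With 1 array left out, counts ran from 0 to 0 in resistant cultures at 16 and 24 h, from 1 to 3, 1 to 4 and 2 to 4 in sensitive cultures at 8, 16 and 24 h, from 0 to 1 for the differences, from 0 to 1 for the late phase of resistant 595sp, from 3 to 4 and 1 to 2 for that of sensitive 589bm and 595sp, from 1 to 4 within 589bm, and from 3 to 4 within 595sp and between lines. Of single calls on member probes, 47 of 51 passed in the authors' table, 50 of 50 among the brightest 30% of probes, 48 of 51 with no filter, 47 of 51 with no normexp, 30 of 51 under median scaling, 6 of 43 with 20 arrays, 4 of 23 without the block, 25 of 32 without the resistant 595sp arrays and 268 of 378 with 1 array left out, and 0 changed sign. The causes were not tested. The test between lines, the 20-array fit within lines, and the phases and list genes without resistant 595sp were chosen after seeing the data.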

Other observations

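Other genes around the growth arrest pathway differed between the resistant and the sensitive culture of a line, on the log2 scale and over the times both had. Here and in the next paragraph the p-values measure the spread over times of 1 pair of cultures per line. All 595sp values and line differences rest on the 5 arrays whose characteristics disagree with their title. Of 24 tested p53 targets outside the members, 1 was higher and 6 were lower in resistant 589bm, where 10.8% of all genes were higher and 9.36% lower. In resistant 595sp 5 were higher and 3 lower, where 10.9% of all genes were higher and 11.3% lower, so the 3 lower ones are near the share of all genes. In 589bm the lowest were Plk2, a stress-induced kinase (-1.44, adjusted p = 1.49e-05), Ddit4, an inhibitor of mTORC1 (-1.31, 7.75e-05), Sesn2 (-1.0, 0.000588) and Cd82, a tetraspanin (-0.79, 0.00919). In 595sp Cd82 (-1.56, 1.22e-05) and Ddit4 (-0.72, 0.0388) were lower, and Trp53inp1, a p53-induced stress protein, was higher (1.20, 0.000101). Bbc3, which encodes the BH3-only protein Puma, was lower in resistant 589bm (-0.66, 0.00536) and higher in resistant 595sp (0.56, 0.015), and the lines differed by -1.22 (0.000454).

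Of 16 tested cyclins and CDKs, 3 were higher and 2 lower in resistant 589bm, and 5 were higher and 2 lower in resistant 595sp. Beside the same shares of all genes, the 2 lower ones in each line are near the background. Ccnd1 was lower in resistant 589bm (-0.78, 0.00182) and higher in resistant 595sp (0.92, 0.000128), and the lines differed by -1.70 (3.54e-06). Ccnd2 was lower in both, by -0.53 (0.0171) and -1.43 (4.65e-06). Of 6 tested Ink4 inhibitors and pocket proteins, 1 was higher and 1 lower in resistant 595sp, with a median of -0.07. In so short a list 1 call cannot be set apart from the share of all genes. The higher one was Cdkn2a, the locus of p16 and p19Arf (1.17, 9.4e-06). Btg1, 1 of 7 tested relatives of Btg2 and Ccng1, was lower in both resistant cultures, by -0.85 in 589bm (0.000711) and -0.41 in 595sp (0.0204).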
